A study of Oryctolagus cuniculus with 4 samples.

Results

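Genes of the cyclins, cyclin-dependent kinases and mitotic machinery were compared between rabbit parthenotes and in vivo fertilised embryos at the blastocyst stage. The set was a list of 48 genes chosen by function, and 39 of them had at least 1 probe on the array, found by gene name, accession or probe description. These 39 genes were read by 88 of the 43603 probes, and 10342 gene symbols could be assigned over the whole array. CCNB3, CCND1, CDC25B, CENPA, CENPF, BIRC5, PRC1, TOP2A and ESPL1 had no probe under their names and were not analysed here.

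Both groups were New Zealand White rabbit blastocysts aged 6 days, measured as total RNA from pools of several embryos on 4 arrays with 2 colours. Parthenotes came from oocytes activated by electrical pulses and then exposed to cycloheximide and 6-DMAP, and developed in the oviduct and uterus of recipient does, so that both of their genome copies were maternal. The untreated embryos came from inseminated does. On each array a parthenote pool labelled with Cy3 was set against a fertilised pool labelled with Cy5, with the dyes swapped on 0 of 4, so dye and group cannot be told apart.

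Cyclins switch on cyclin-dependent kinases in a fixed order through the cell cycle, D and E types before DNA replication and A and B types up to mitosis. In mitosis condensin compacts the chromosomes, the kinetochore joins them to spindle microtubules, and the spindle checkpoint holds back separation until all are attached. Aurora and polo-like kinases steer these steps and centrosome duplication, and kinesins and anillin complete the spindle and cytokinesis. Rapidly dividing blastocyst cells are known to carry high levels of many of these transcripts.

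Of the 39 genes, 9 (23.1%) differed between the groups at an adjusted p under 0.05 in limma, 2 upregulated (5.13%) and 7 downregulated (17.9%) in parthenotes. Over all 10341 named genes tested, each by its brightest probe, the share was 23.9%, with 11.6% upregulated and 12.3% downregulated. Over all 43595 probes it was 20.6%. Among genes well above background in both colours of every array it was 9 of 38 (23.7%), beside 29.3% of all 6968 such genes. The share among the mitosis and cyclin genes was thus near that of the array as a whole, and is no result about these genes. KIF20A and CCND3 were upregulated, though both turned lower with median centring of the arrays in place of the deposited normalization, and KIF23, PLK4, NCAPG, CCNE1, SMC4, BUB3 and AURKA were downregulated. At an unadjusted p under 0.05 there were 18 genes (46.2%), 4 higher (10.3%) and 14 lower (35.9%), beside 41.9%, 19.8% and 22.2% of all named genes, and this is a description with no test of the set. In such pools, fewer cells of a type and less RNA per cell cannot be told apart.

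The differences were small. The largest was 1.49-fold, for KIF20A, and 0 of the 39 genes passed 1.5-fold, which 15.6% of all named genes did, dim ones included. Of the 6968 named genes well above background, 3.93% lay at or below a log2 ratio of -0.6 and 94.7% at or below 0.6. For the 39 genes these shares were 0% and 100%. The median size of the log2 ratio was 0.12 for the 39 genes, beside 0.20 for the 6968 named genes that the image software rated well above background on every array in both colours. The mean log2 ratio of parthenote over fertilised embryos was negative for 27 genes and positive for 12, so 69.2% were negative, beside 49.1% of all named genes. The median was -0.10, and was -0.06, -0.13, -0.12 and -0.15 on arrays 1 to 4. The median over the 6968 genes was -0.01, and was between -0.03 and 0.01 on single arrays. These medians are descriptions with no test.

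**Figure D1:**
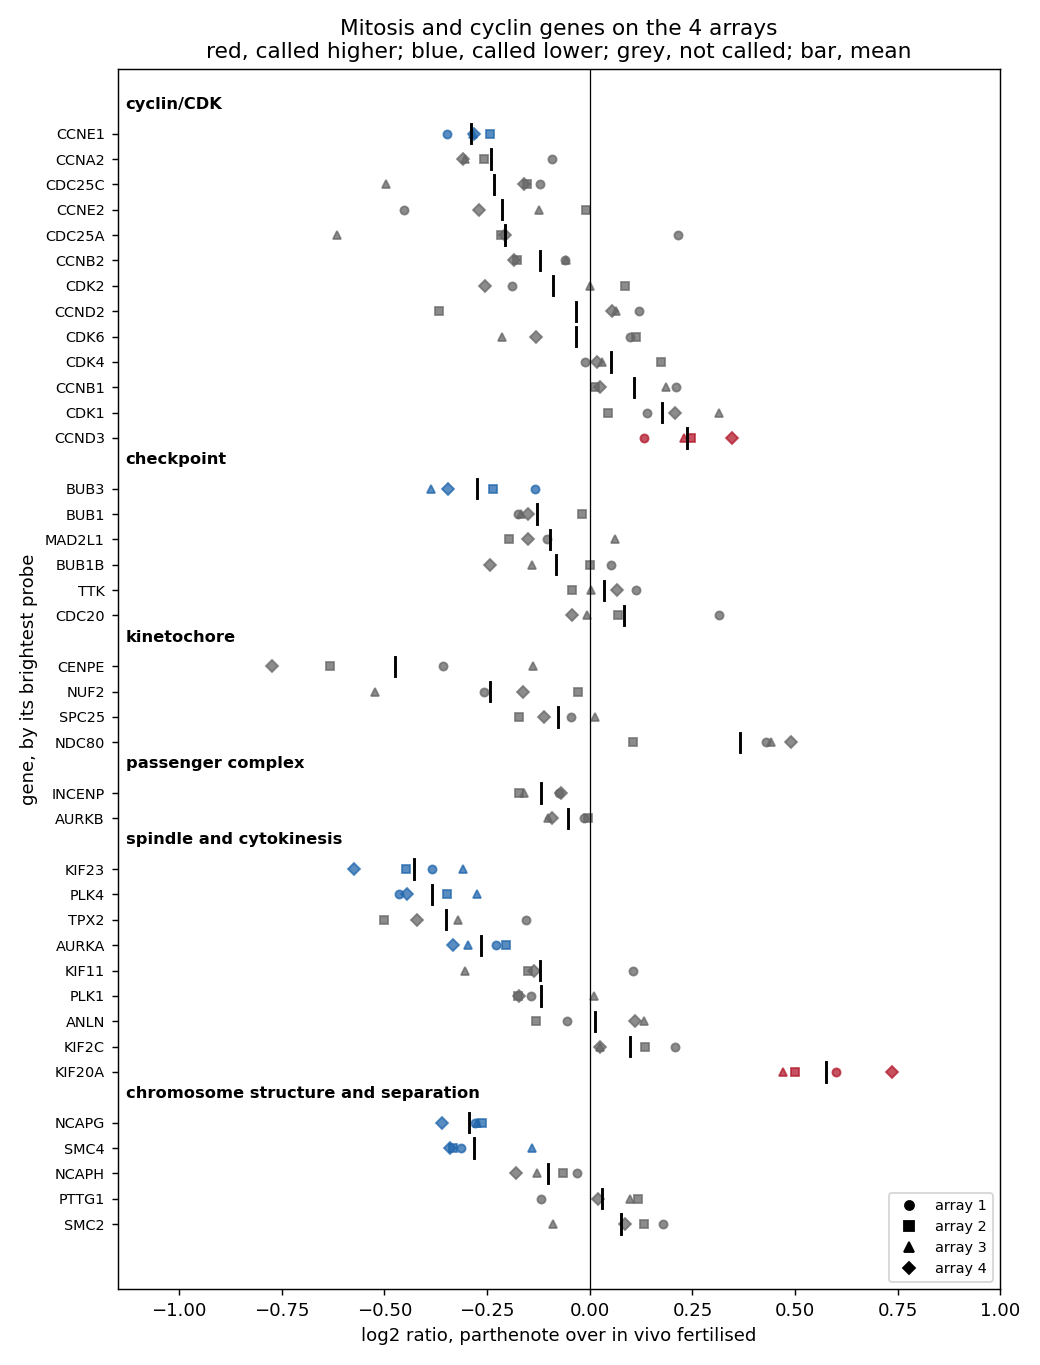
Log2 ratio of parthenote over in vivo fertilised embryos (x axis) for each of the 39 genes (y axis, grouped by role), with a marker for each array and a bar at the mean. The genes called higher, KIF20A and CCND3, lie right of 0 and the 7 called lower lie left of 0 on all 4 arrays, while most grey genes lie near 0. With median centring in place of the deposited normalization, KIF20A and CCND3 lie left of 0.

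By their brightest probes, 38 of the 39 genes stood well above background throughout, and CENPE did so in the parthenote colour on only 1 of 4 arrays and in the fertilised colour on all 4. None of the 39 was saturated or marked as an outlier on any array. Of the 43803 spots of an array, 25805 to 26339 stood well above background in Cy3 and 27508 to 27835 in Cy5. The number of arrays limits the precision. The p-values rest on the spread of the ratios between arrays, in which pools, labelling and hybridisation cannot be separated.

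Blastocyst markers were present in both groups. All 3 epiblast markers with a probe, 3 of 4 trophectoderm markers and 2 of 3 primitive endoderm markers stood well above background throughout, and ELF5 was not on any. POU5F1 (0.21) and KRT8 (0.58) were upregulated and 0 of these 10 markers were downregulated. The others did not pass, with positive means for DPPA5 (0.31), GATA3 (0.12) and ELF5 (0.03). Means were negative for LIN28A (-0.22), TFAP2C (-0.31), APOA1 (-0.75), GATA4 (-0.34) and TTR (-0.29), the last 3 being the primitive endoderm markers. The log2 ratio of the summed signal was 0.16 to 0.34 for epiblast, 0.26 to 0.72 for trophectoderm and -1.42 to -0.09 for primitive endoderm markers. Markers of other cell types were upregulated in unequal shares, beside 11.6% of all named genes. For secretory epithelium of oviduct and uterus, 4 of 6 markers were upregulated and 0 downregulated, and their summed processed signal was between 6661 and 26658 in parthenote pools and between 1089 and 2686 in fertilised pools. For motile ciliated cells, 5 of 9 were upregulated, with sums of 1536 to 3910 against 505 to 659, and FOXJ1 was not well above background on any array. For leukocytes, 3 of 6 were upregulated, with sums of 401 to 465 against 209 to 226, and PTPRC and CD3E were not well above background. Erythroid cells had 2 of 3 markers upregulated, HBA and ALAS2, with sums of 13204.5 to 31933 in parthenotes against 4292 to 11360.5. Stroma and smooth muscle had 1 of 8 (12.5%), TAGLN, a share near that of all named genes, with sums of 3642 to 5054 against 2323 to 3197. COL1A1, MYH11 and ACTA2 were not well above background. Among the markers of these other cell types, MSX2 (-0.11), SLC4A1 (-0.38) and COL1A1 (-0.02) had negative means. SLC4A1 stood well above background on 0 arrays in Cy3 and 1 in Cy5. CAPS, DYNLRB2, FANK1, SCGB1A1, OVGP1, CD48, ALAS2 and the PIGR probe were already reported as upregulated on these arrays. Their calls were thus known beforehand, and the counts and sums that hold them are a description and no test. The part of these other cells in the ratios below was not tested.

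The probes behind 8 of the 9 genes that differed are shown because each stands for its whole gene in the comparison. Each is 60 bases long, written 5′ to 3′, and capitals mark a stop codon at the end of a probe whose frame holds no other stop. Positions are those of the array file, which names no genome build, and a span longer than the probe crosses a gap between its parts. KIF20A lies at chr3:20485538-20485597 on the plus strand, PLK4 at chr15:103699586-103700731 on the plus strand, NCAPG at chr2:8400479-8402362 on the plus strand and SMC4 at chr14:54839757-54839816 on the plus strand. Positions of KIF23, CCNE1, BUB3 and AURKA are not given here.
KIF20A: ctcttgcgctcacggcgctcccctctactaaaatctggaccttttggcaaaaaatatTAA
KIF23: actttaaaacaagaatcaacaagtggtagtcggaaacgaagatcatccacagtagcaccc
PLK4: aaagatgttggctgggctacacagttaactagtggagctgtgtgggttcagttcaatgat
NCAPG: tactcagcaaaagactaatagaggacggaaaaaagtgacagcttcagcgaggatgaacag
CCNE1: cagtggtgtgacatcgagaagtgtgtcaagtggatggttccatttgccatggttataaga
SMC4: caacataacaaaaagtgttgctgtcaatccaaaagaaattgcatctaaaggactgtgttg
BUB3: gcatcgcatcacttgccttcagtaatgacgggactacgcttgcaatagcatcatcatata
AURKA: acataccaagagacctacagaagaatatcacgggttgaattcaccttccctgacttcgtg

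Among the cyclins, their kinases and the CDC25 phosphatases that activate them, 13 of 16 genes had a probe. CCND3 was upregulated, CCNE1 was downregulated and 11 did not pass the test, with a median log2 ratio of -0.09. CCNE1 encodes cyclin E1, which drives entry into DNA replication with CDK2. Its log2 ratios were -0.35, -0.24, -0.28 and -0.28 on arrays 1 to 4, all below 0 and close together. The mean was -0.29 (SD 0.04, n = 4), 1.22-fold lower in parthenotes (adjusted p = 0.0110). CCND3 encodes cyclin D3, a partner of CDK4 and CDK6. Its log2 ratios were 0.13, 0.25, 0.23 and 0.35, all above 0. The mean was 0.24 (SD 0.09, n = 4), 1.18-fold higher (adjusted p = 0.0396), but -0.23 with median centring of the arrays. For both genes the signal levels of the groups overlapped between arrays, although the ratio kept its sign within each.

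The brightest cyclins and CDK1 did not pass the test. CCNB1 encodes cyclin B1, the activator of CDK1 at entry into mitosis. Its log2 ratios were 0.21, 0.01, 0.19 and 0.02, with a mean of 0.11 (SD 0.10, adjusted p = 0.224). CCNB2, the second B-type cyclin, had -0.06, -0.18, -0.06 and -0.19, with a mean of -0.12 (SD 0.07, adjusted p = 0.0916). By these probes the 2 genes had opposite signs on every array. The other CCNB1 probe was below 0 on all 4 arrays (mean -0.10), and a further CCNB2 probe had a mean of 0.03. CDK1, the kinase of mitotic entry, had 0.14, 0.05, 0.31 and 0.21, with a mean of 0.18 (SD 0.11, adjusted p = 0.109). All 4 lay above 0, but spread too far to pass. CCND2 encodes cyclin D2, though the array file describes its probe as cyclin D1 and the name here follows the accession. It had 0.12, -0.37, 0.06 and 0.05, with array 2 apart from the rest and a mean of -0.03 (SD 0.23, adjusted p = 0.961). The other 7 genes ranged from -0.24 for CCNA2, the cyclin of DNA replication and early mitosis (adjusted p = 0.0508), to 0.05 for CDK4.

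All 6 checkpoint genes had a probe, and 1 was downregulated. BUB3 encodes a checkpoint protein that brings BUB1 and BUBR1 to unattached kinetochores. Its log2 ratios were -0.13, -0.24, -0.39 and -0.34, all below 0. The mean was -0.27 (SD 0.11, n = 4), 1.21-fold lower (adjusted p = 0.0483), and the 4 parthenote levels lay below the 4 fertilised levels. CDC20, the activator of the anaphase-promoting complex that the checkpoint holds back, had 0.31, 0.07, -0.01 and -0.04. Its mean was 0.08 (SD 0.16, adjusted p = 0.523), and its sign differed between arrays. BUB1, BUB1B, MAD2L1 and the kinase TTK ranged from -0.13 to 0.03 and did not pass.

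None of the 4 kinetochore genes and neither of the 2 passenger complex genes with a probe passed the limma test. NDC80 and NUF2 are partners in the complex that grips the microtubule end, and SPC25 belongs to the same complex. NDC80 had 0.43, 0.11, 0.44 and 0.49, with a mean of 0.37 (SD 0.18, adjusted p = 0.0627). In limma with a filter on dim probes NDC80 passed (adjusted p = 0.0197), and it did so under further alternatives. NUF2 had a mean of -0.24 (SD 0.21, adjusted p = 0.183) and was below NDC80 on all 4 arrays. CENPE, a kinetochore motor and the dimmest of the 39 genes, had the lowest mean at -0.48, with its parthenote signal not well above background on 3 arrays and a wide SD of 0.28 (adjusted p = 0.0946). INCENP, the scaffold of the passenger complex, and AURKB, its kinase, had means of -0.12 (adjusted p = 0.0588) and -0.05 (adjusted p = 0.235). At an unadjusted p under 0.05, CENPE, NDC80 and INCENP passed.

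The spindle and cytokinesis genes held the largest differences that passed. Of 10 genes, 9 had a probe, 1 was upregulated and 3 were downregulated. KIF20A encodes a kinesin that carries passenger proteins to the central spindle during cytokinesis. It was the brightest of the 39 genes, with log2 ratios of 0.60, 0.50, 0.47 and 0.74. The mean was 0.58 (SD 0.12, n = 4), 1.49-fold higher in parthenotes (adjusted p = 0.0161), but -0.42 with median centring, where the 6968 named genes above had a median of -0.39. The log2 signal of KIF20A was between 15.49 and 15.75 in parthenotes and between 14.95 and 15.15 in fertilised embryos, with no overlap.

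KIF23 encodes a kinesin of the same family that bundles the central spindle. Its log2 ratios were -0.38, -0.45, -0.31 and -0.57, all below 0. The mean was -0.43 (SD 0.11, n = 4), 1.35-fold lower (adjusted p = 0.0228). KIF20A exceeded KIF23 by 1.00 on the log2 scale (SD 0.22) in their ratios, in the same direction on 4 of 4 arrays. PLK4, the kinase that starts centriole duplication, had -0.46, -0.35, -0.27 and -0.45. Its mean was -0.38 (SD 0.09, n = 4), 1.30-fold lower (adjusted p = 0.0188). AURKA encodes the aurora kinase of centrosomes and spindle poles, and its probe is described in the array file as like aurora kinase B, so the name follows the gene identifier. It had -0.23, -0.20, -0.30 and -0.33, with a mean of -0.27 (SD 0.06, n = 4), 1.20-fold lower (adjusted p = 0.0180). In these 3 genes every parthenote level lay below every fertilised level.

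TPX2, which activates aurora A on the spindle, had a mean of -0.35 (SD 0.15) and lay just outside the threshold (adjusted p = 0.0503), as BUB3 lay just inside. In limma with a filter on dim probes TPX2 passed (adjusted p = 0.0168), and it did so under further alternatives. PLK1, KIF11, KIF2C and ANLN ranged from -0.12 to 0.10 and did not pass. PLK1 acts in centrosome maturation, KIF11 pushes spindle poles apart, KIF2C shortens microtubules and ANLN scaffolds the cleavage furrow.

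Of 7 genes of chromosome structure and separation, 5 had a probe and 2 were downregulated, both of them condensin subunits. NCAPG, a regulatory subunit, had -0.28, -0.26, -0.27 and -0.36. Its mean was -0.29 (SD 0.04, n = 4), 1.23-fold lower (adjusted p = 0.0111). SMC4, an ATPase of the condensin core, had -0.31, -0.33, -0.14 and -0.34, with array 3 apart. Its mean was -0.28 (SD 0.10, n = 4), 1.22-fold lower (adjusted p = 0.0342). For both genes the levels of the groups did not overlap. The other condensin subunits were NCAPH at -0.10 (adjusted p = 0.113) and SMC2, the partner of SMC4, at 0.08 (adjusted p = 0.423). PTTG1, the securin that restrains separase, had 0.03, and its probe also matched a second locus.

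**Figure D2:**
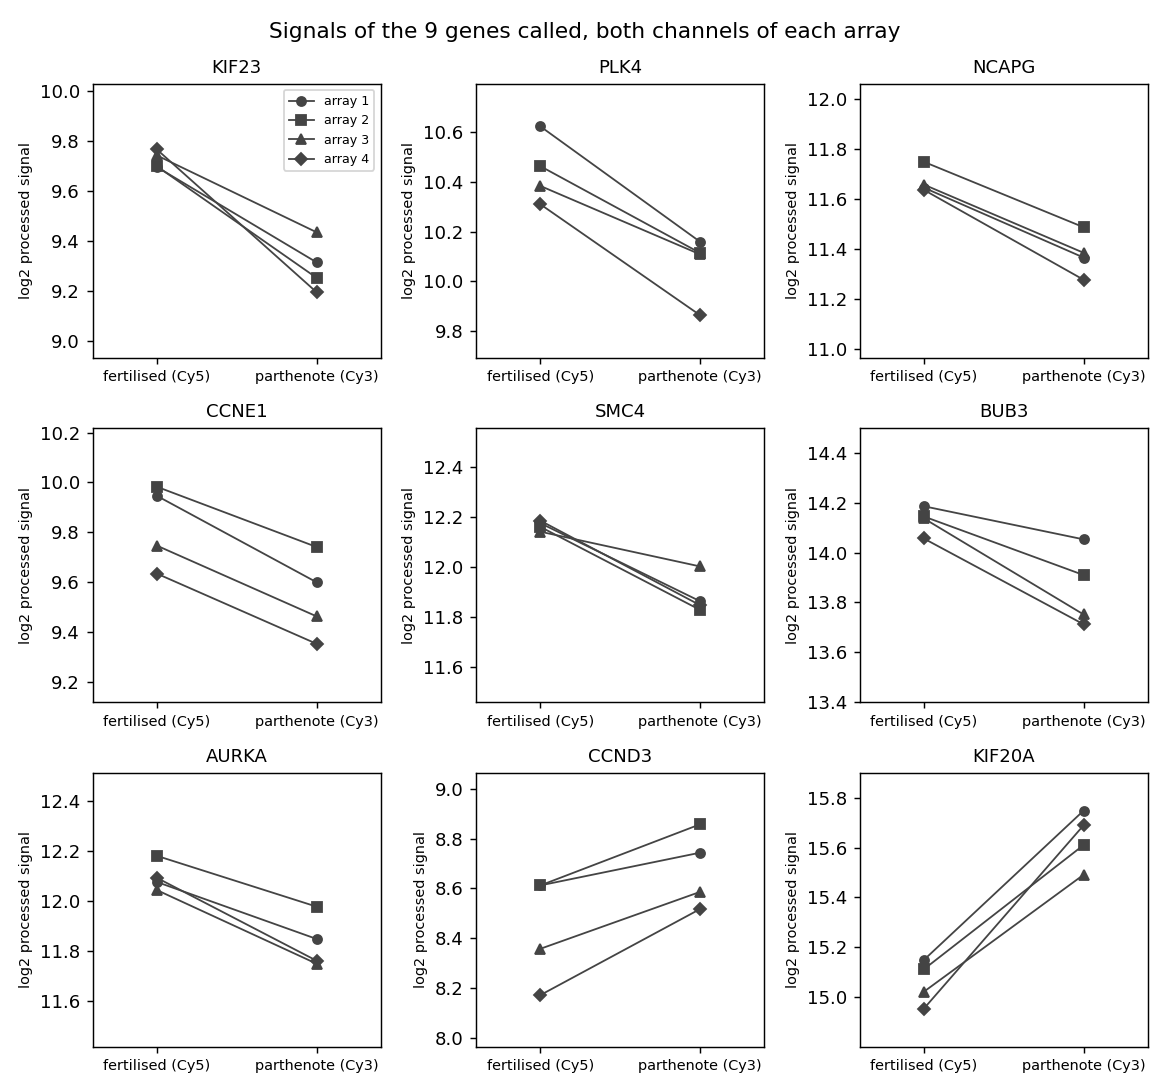
Log2 processed signal (y axis, a span of equal height in each panel that does not start at 0) of the 9 genes called, in the fertilised (Cy5) and parthenote (Cy3) channel of each array, joined by a line per array. All 4 lines fall for 7 genes and rise for CCND3 and KIF20A, and the 2 channels overlap in level only for CCNE1 and CCND3; with median centring CCND3 and KIF20A were lower in parthenotes.

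Levels of the groups did not overlap for 11 of the 39 genes (28.2%), beside 32.2% of all named genes. Besides 7 of the 9 genes called, these were CCNA2, CDK1, NDC80 and TPX2. Differences between related genes were then read within arrays, for 12 pairs of paralogues or complex partners. In 8 pairs the difference of the log2 ratios had the same sign on all 4 arrays, which gave p = 0.125 by an exact two-sided test over sign changes (adjusted p = 0.188 over the 12 pairs), the smallest p that 4 arrays allow. Most of these pairs hold a gene called above, and no share was worked out for other pairs of genes, so the count is a description. CCNB1 exceeded CCNB2 by 0.23 (SD 0.04) by their brightest probes, though the sign of each gene depended on the probe. AURKA was below AURKB (mean difference -0.21, SD 0.02), and PLK4 was below PLK1 (mean difference -0.26, SD 0.06). NCAPG was below NCAPH (mean difference -0.19, SD 0.04) and SMC2 exceeded SMC4 by 0.36 (SD 0.21). The pairs CCNE1 and CCNE2, CDK4 and CDK6, CDC25A and CDC25C, and BUB1 and BUB1B had differences of both signs over the arrays.

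Genes with several probes allowed the ratio to be read at more than 1 place in a transcript. Of the 39 genes, 21 had 2 or more probes, and the means of a gene's probes spanned a median of 0.15 on the log2 scale. In 11 of these genes neighbouring probes overlapped by their positions in a transcript, so they are not separate readings. KIF2C is not among them, but its brightest probe and another, placed on different transcripts, share most of their sequence and are not separate either. PLK4 had 3 probes that do not overlap, with means of -0.36, -0.38 and -0.42 and an adjusted p under 0.05 for each. Both CCND3 probes passed, but they are shifted by 1 base. For CCNE1, 2 overlapping probes passed (-0.29 and -0.21) and the third had -0.08. For BUB3, 1 of 3 overlapping probes passed, with means from -0.27 to -0.20. KIF20A, KIF23, NCAPG, SMC4 and AURKA rest on 1 probe each.

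NDC80 had the widest span, 0.31, between 2 neighbouring probes of the same sign. The probe that ends at the stop codon, at chr9:59441948-59442007, gave 0.43, 0.11, 0.44 and 0.49. The probe next to it, at chr9:59442009-59442068, gave 0.10, 0.01, 0.09 and 0.03, a mean of 0.06 (SD 0.04). Both lie on the minus strand. They are shown with the 2 further probes of PLK4, whose ratios lay close together.
NDC80, mean 0.37: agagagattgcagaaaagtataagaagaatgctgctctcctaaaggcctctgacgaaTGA
NDC80, mean 0.06: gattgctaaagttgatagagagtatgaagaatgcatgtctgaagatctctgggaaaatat
PLK4, mean -0.42: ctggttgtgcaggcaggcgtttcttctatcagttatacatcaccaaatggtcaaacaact
PLK4, mean -0.36: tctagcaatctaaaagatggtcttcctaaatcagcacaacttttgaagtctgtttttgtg

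In 8 genes the probes differed in sign. The ranges of their means were -0.09 to 0.01 for ANLN, -0.10 to 0.11 for CCNB1, -0.16 to 0.03 for CCNB2 and -0.21 to 0.01 for CCNE2. They were -0.07 to 0.18 for CDK1, -0.20 to 0.01 for MAD2L1, -0.08 to 0.09 for SPC25 and -0.02 to 0.12 for TTK. CCNB2 was the only gene with a probe that passed (-0.16, SD 0.06) while its brightest probe did not. For these 8 genes the direction depended on the probe.

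**Figure D3:**
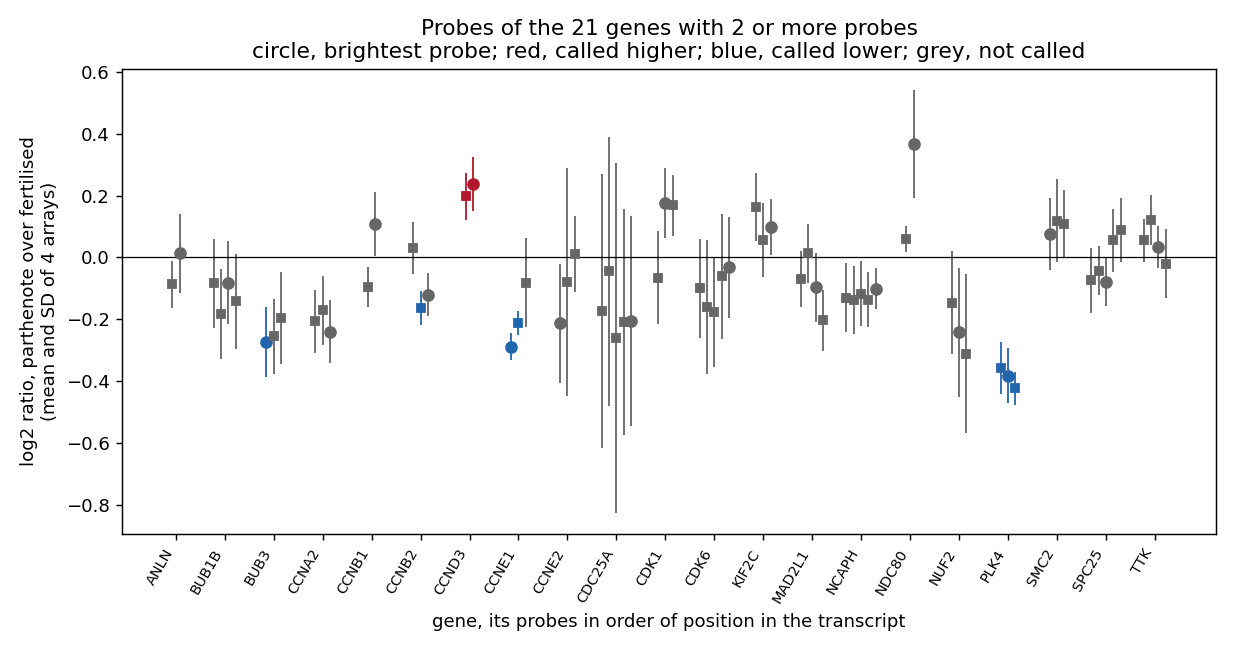
Mean log2 ratio of parthenote over fertilised embryos (y axis, bars are the SD of 4 arrays) for every probe of the 21 genes with 2 or more probes (x axis, probes in order of position). The 3 PLK4 probes lie together near -0.4, the 2 NDC80 probes lie apart at 0.06 and 0.37, and the probes of CDK1 and CCNB1 fall on both sides of 0.

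Other genes of the cell cycle showed a similar distribution. Of 115 further genes of cyclin regulation, kinetochore, checkpoint, spindle and chromosome structure, 79 had a probe, 4 were upregulated and 13 downregulated (21.5% in all, beside 23.9% of named genes). Their median log2 ratio was -0.10, with 53 of 79 negative. The 4 upregulated genes were RB1, NSL1, TACC3 and WEE1. RB1, the retinoblastoma protein that restrains entry into DNA replication, had 0.74, 0.83, 0.76 and 0.91, with a mean of 0.81 (SD 0.08, adjusted p = 0.00671). NSL1, a kinetochore subunit, had 0.43, the spindle protein TACC3 had 0.26, and WEE1, a kinase that inhibits CDK1, had 0.21.

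The lowest ratio belonged to SKA1, which holds kinetochores on shortening microtubules, with -0.92, -0.79, -0.75 and -0.82. Its mean was -0.82 (SD 0.07, adjusted p = 0.00584). RBL1, a relative of the retinoblastoma protein, had -0.57 (adjusted p = 0.0459). HJURP, which loads the centromeric histone, had -0.50 (adjusted p = 0.0424), and KNTC1, a checkpoint protein of the kinetochore, had -0.40 (adjusted p = 0.0162). MKI67, a marker of dividing cells, had 0.06 and did not pass.

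**Figure D4:**
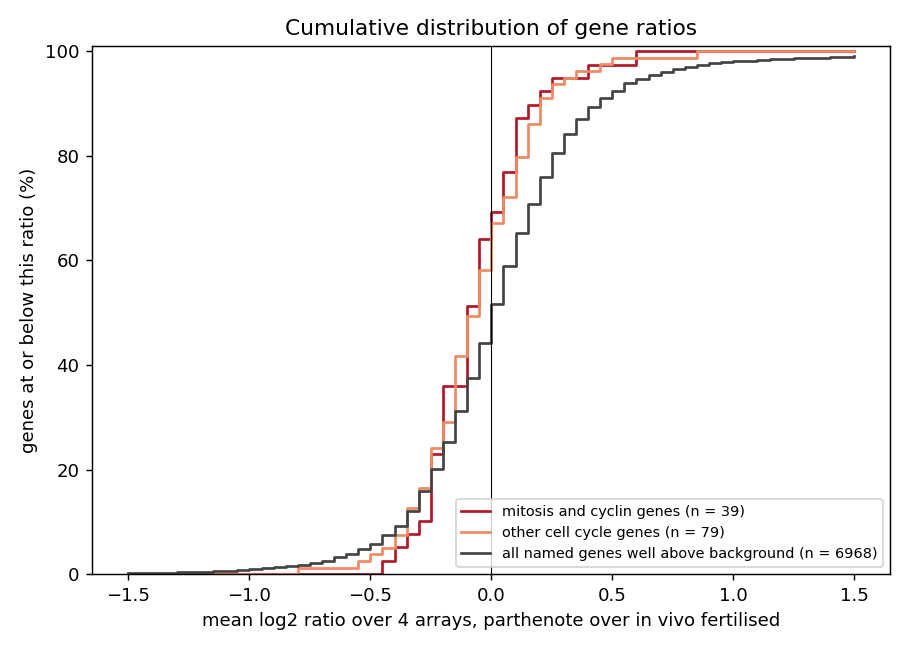
Cumulative share of genes (y axis, %) at or below each mean log2 ratio of parthenote over fertilised embryos (x axis) for the 39 mitosis and cyclin genes, the 79 other cell cycle genes and the 6968 named genes well above background. At 0 the first curve has reached 69.2%. Between -0.3 and 0.1 the first curve rises from 10.3% to 87.2% and the second from 16.5% to 79.7%. The curve of all named genes rises from 15.9% to 65.3% there.

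The calls depended on the number of arrays. Without array 1, 3 of the 39 genes passed (NCAPG and CCNE1 of the 9, and CCNA2), without array 2, 3 passed (CCNE1, BUB1 and NDC80), without array 3, 3 passed (PLK4, SMC4 and PLK1) and without array 4, 1 passed (NCAPG). Over all probes the calls fell as well, from 8996 to between 1239 and 5736. The direction of the 9 genes did not change in any of these fits. With 3 arrays KIF20A had adjusted p-values between 0.0548 and 0.0701 and KIF23 between 0.0625 and 0.101. With 4 arrays, CCNE1 (adjusted p = 0.0858) and CCND3 (adjusted p = 0.180) did not pass in limma without the pairing of the channels, and CCND3 did not pass with normexp and loess (adjusted p = 0.0637). BUB3 did not pass with an intensity trend or with the mean or median of its probes (adjusted p between 0.0582 and 0.0753).

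**Figure D5:**
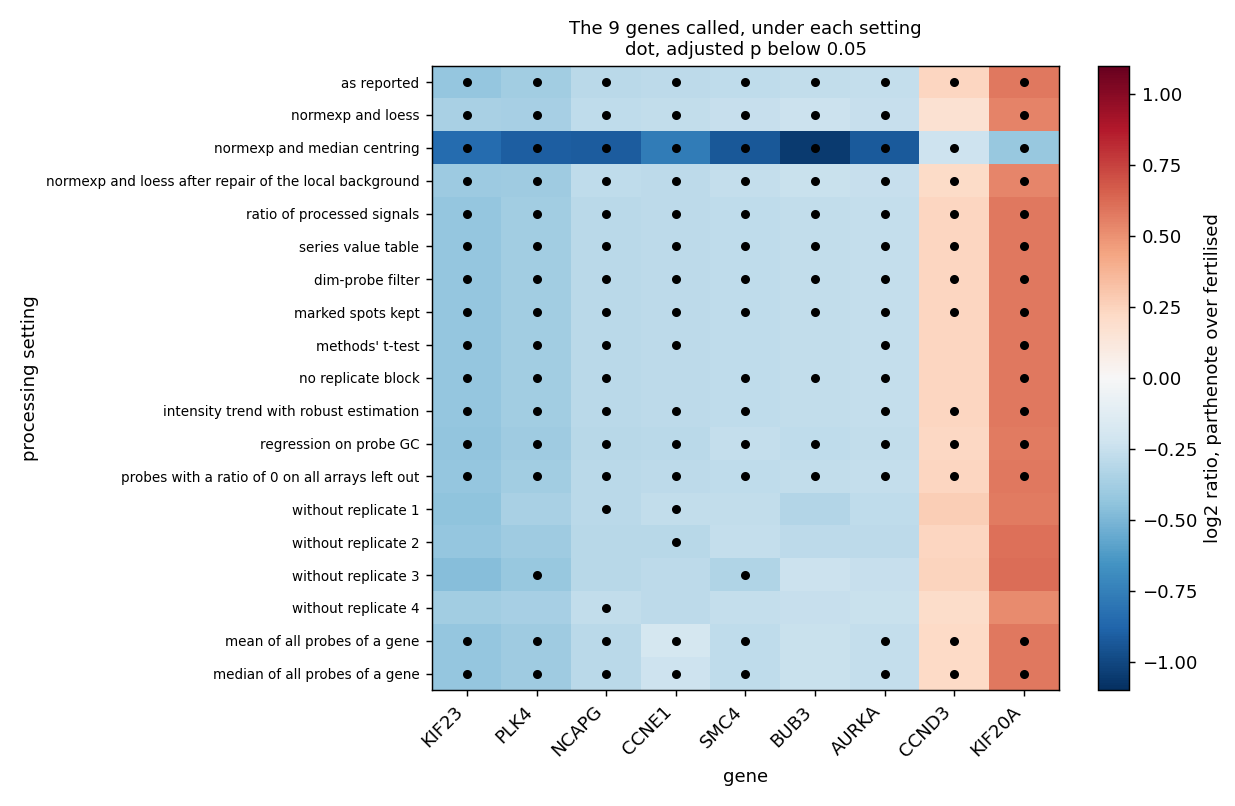
Log2 ratio (colour) of the 9 genes called (x axis) under the reported setting and 18 alternatives (y axis), with a dot where the adjusted p was under 0.05. The signs hold throughout except for CCND3 and KIF20A under median centring, and most dots are lost where an array is left out.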

How the data were processed

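Total RNA of each pool (150 ng) was amplified, labelled and hybridised to a rabbit oligonucleotide array. The authors processed the images with Feature Extraction (version 10.10.1.1 per the labels). The deposited log10 ratio of each spot is Cy5 over Cy3 after background subtraction and dye normalization, and is 0 where neither channel has a usable signal. The deposited mean, background and processed intensity values of each channel were used for levels and alternatives. The authors' value table repeats these log10 ratios under the opposite sign, so as an alternative it changes nothing.

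Here the ratios were turned to log2 of parthenote over fertilised. Controls were dropped, marked outlier spots were treated as missing, and replicate spots of one probe were averaged. Probes measured on 3 or more arrays (43595) entered a linear model against 0 in limma 3.58.1 (lmFit, then eBayes; R 4.3.3). P-values were adjusted over all of them by Benjamini-Hochberg, with a threshold of 0.05. The model was also run on simulated ratios with the spreads of these data. There it called 16 of 50 changes of 1.5-fold, 37 of 50 changes of 5-fold and 8 of 43395 unchanged probes. Few simulated probes were changed, while 20.6% of the real probes were called, so the adjustment was stricter in the simulation. The spreads also included probes whose ratio was 0 on all arrays. These shares are thus no measure of the power for the mitosis and cyclin genes. Python 3.11.15 made summaries and figures.

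Probes were named through gene identifiers and descriptions in the array files and a RefSeq table of rabbit genes (assembly mOryCun1.1, names only), which gave a symbol to 23199 of 43603 probes. Each gene was read by its brightest probe, the one with the highest mean log2 processed intensity. Array values were given for genes that passed with 1 sign on all arrays and for the 5 brightest that did not pass, and for other cell cycle genes the 4 highest and 4 lowest that passed were named. NDC80, TPX2, CCNA2 and single probes were named after their values were seen. Members and lists were chosen with earlier results of these data known.

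Array and pool are paired by design, since both channels share an array. Deviations of the 2 channels of an array from their group means correlated at 0.60 to 0.65 over 43527 probes. The mean of about -0.21 with other arrays follows from this, because the deviations of a probe sum to 0 over the arrays. All 4 arrays shared a single slide, so no batch could be compared. The alternatives were normexp (offset 50) followed by loess, by median centring, or by loess once the local background was repaired, the ratio of processed intensities, the value table, a filter on dim probes, marked spots kept, the methods' t-test, no pairing, an intensity trend, regression on probe GC, each array left out, and the mean or median of a gene's probes. A fit without probes whose ratio was 0 on all arrays was added after seeing the data. The probe sequence of CCND3 is not reported here.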

Additional observations from a re-analysis of the deposited data

Results flagged for a closer look

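In 5 of the 39 genes 1 of the 4 arrays lay far from the other arrays by Dixon's ratio, which chance gives in about 1 in 20 groups. CDC25C had a log2 ratio of -0.50 on array 3, beside -0.12, -0.15 and -0.16 on the others. CCND2 had -0.37 on array 2, beside 0.12, 0.06 and 0.05. BUB1 had -0.018 on array 2, beside -0.17, -0.17 and -0.15. NDC80 had 0.11 on array 2, beside 0.43, 0.44 and 0.49, and passed the limma test without that array (adjusted p = 0.0339). SMC4 had -0.14 on array 3, beside -0.31, -0.33 and -0.34, and without that array its adjusted p in limma was 0.0262. For NDC80 and SMC4 the array left out was picked because it lay apart, which narrows the spread, so these p-values are a description and no test.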

How the results depend on the processing

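The log2 ratio of each of the 39 genes kept its direction under most alternatives, and median centring turned the most. With normexp and median centring, which removes no dependence on intensity, 35 genes were called, 0 higher and 35 lower, with a median of -0.65, and 31610 probes were called in all. The 6968 named genes well above background had a median of -0.39 there, so the mitosis and cyclin genes lay 0.26 below it (difference -0.26), beside 0.09 (difference -0.09) as reported. The genes whose sign turned there were NDC80 (-0.30), CCNB1 (-0.81), KIF20A (-0.42), CDC20 (-0.64), CDK1 (-0.56), ANLN (-0.19), SMC2 (-0.50), KIF2C (-0.49), CDK4 (-0.60), PTTG1 (-0.65), TTK (-0.55), CENPE (0.046) and CCND3 (-0.23). CCND2 turned to 0.019 with normexp and loess, 0.013 with the repaired background and 0.0059 with regression on probe GC, and ranged from -0.084 without array 1 to 0.079 without array 2. ANLN turned to -0.037 with the mean or the median of its probes, and with an array left out it ranged from -0.025 (array 3) to 0.062 (array 2), and CDK6 from -0.081 (array 2) to 0.028 (array 3). With loess after repair of the local background 13 genes were called, 4 higher and 9 lower, and 13085 probes (30.0%, beside 20.6% as reported). The ratio of processed signals called 21399 probes and the methods' t-test called 4435 probes and 6 genes, 1 of them higher, without BUB3, SMC4 and CCND3. Without the pairing of the channels of an array (no replicate block), 11 genes were called, 2 higher and 9 lower, and 16358 probes, and CCND3 and CCNE1 were not among the genes called. With 1 array left out, between 1 and 3 genes were called, 0 to 1 higher and 1 to 3 lower, and between 1239 and 5736 probes. Leaving out probes whose ratio was 0 on all arrays, a choice made after seeing the data, kept all 9 genes and added NDC80 and TPX2. The cause of these shifts was not tested. With 4 arrays and no dye swap, small differences can be missed and a dye effect of a probe cannot be separated from the group.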
